A study of Mus musculus with 39 samples.

Results

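The effect of adding tretinoin to immune checkpoint therapy (ICT) was measured by comparing 10 tumours of mice given both with 10 tumours of mice given ICT alone, across all genes of the deposited count table. The 20 tumours were chosen by their treatment label from the 39 tumours of the series, whose other tumours came from mice given PBS (10) or tretinoin alone (9). Each tumour grew under the skin of a young adult BALB/c mouse from AB1-HA, a mouse mesothelioma cell line that carries an influenza haemagglutinin gene, and was taken whole on day 9. The ICT group received antibodies against CTLA-4 and PD-L1, 100 µg of each a dose, from day 7. The study's methods give the PD-L1 antibody in repeated doses, and how many came before harvest is not clear. The Tretinoin+ICT group received the same antibodies and, per the labels, tretinoin at 5 mg/kg daily for 5 days from day 4. By the deposited labels 6 of its tumours came from responding and 4 from non-responding mice, read from a second tumour left in place on the other flank, whereas the ICT tumours have no such label. The study's methods name ICT, tretinoin and PBS arms beside the combination when they describe mice with a tumour on each flank. The labels do not state that these ICT mice were such mice, and a part of the tumour model in the differences was not tested. The tumours were named in series of which each holds 1 treatment, so that treatment and naming series cannot be told apart. The model is a single cell line, and the RNA is that of tumour, stroma and infiltrating leukocytes together.

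Tretinoin is all-trans retinoic acid, the active form of vitamin A. It binds nuclear retinoic acid receptors, which pair with retinoid X receptors on DNA and switch on target genes, and among the usual targets are the enzymes and binding proteins that limit retinoic acid itself. Antibodies against CTLA-4 and PD-L1 release brakes on T cells, and interferon gamma made by activated T cells induces antigen presentation genes, guanylate-binding proteins and chemokines in the cells around them.

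Total counts ranged from 15565521 to 37951183 in the Tretinoin+ICT group and from 14033046 to 21095905 in the ICT group. The labelled tissue was checked against markers. Leukocyte (Ptprc, 157 to 752 CPM, which is counts scaled to a common library size), macrophage (Csf1r, 565 to 1107 CPM) and stromal (Col1a1, 1211 to 2934 CPM) genes were detected in all 20 tumours. Of the mesothelial genes, Pdpn was at 62.7 to 94.0 CPM and Wt1 at 0.661 to 5.38 CPM, and Upk3b, Calb2, Krt19 and Lrrn4 stayed below 1 CPM in every tumour. 2 ICT tumours, 63 and 82, stood apart by their immune genes. Cd8a, a chain of the CD8 receptor, was at 27.7 CPM in tumour 63 and 32.6 CPM in tumour 82, and at 3.47 to 9.02 CPM in the other 8 ICT tumours. The summed T cell markers were at 256 and 235 CPM in these tumours and at 67.2 to 106 CPM in the others. Group counts that turn on tumours 63 and 82 are given with and without them. Because these tumours were singled out for high immune genes, leaving them out lowers the ICT level of those genes by construction, and such counts are descriptions and not independent of the immune, T cell and antigen presentation lists. In the ICT group tumours 63 and 82 also had the 2 highest summed levels of retinoid receptors and targets. The same held for the type 2, immediate early and hypoxia lists, and counts without these tumours are only descriptions there too.

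More genes were higher than lower with tretinoin on top of ICT. With edgeR's quasi-likelihood test, 52 of 14202 genes (0.366% of genes tested) were called higher, which took a fold change of at least 2 and, after Benjamini-Hochberg adjustment, a p below 0.05, and 4 (0.0282%) were called lower. By the adjusted p alone 223 genes (1.57%) rose and 60 (0.422%) fell, and the median log2 fold change of all genes tested was -0.0049. The rises and falls were mostly moderate, with medians of 0.55 and -0.53 on the log2 scale. All 10 Tretinoin+ICT tumours lay above all 10 ICT tumours for 39 genes (0.275%) and below them for 3 (0.0211%), and these 42 genes all passed the adjusted p. In whole-tumour RNA, a change in the number of cells of a type and a change in RNA per cell cannot be told apart. The number of genes turned on tumour 63, and more so on tumours 63 and 82 together. Without them the adjusted p was passed by 1372 genes upward (9.58% of 14322) and 1048 downward (7.32%), and all 283 genes of the 20-tumour fit were among them. Without tumour 63 alone 545 of 14266 genes rose and 338 fell. Without tumour 82 alone 242 of 14261 rose and 62 fell, close to the counts with all 20 tumours. DESeq2 passed 421 of 16185 genes upward and 166 downward with all 20 tumours. These counts over all genes stand beside the group counts below.

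**Figure D1:**
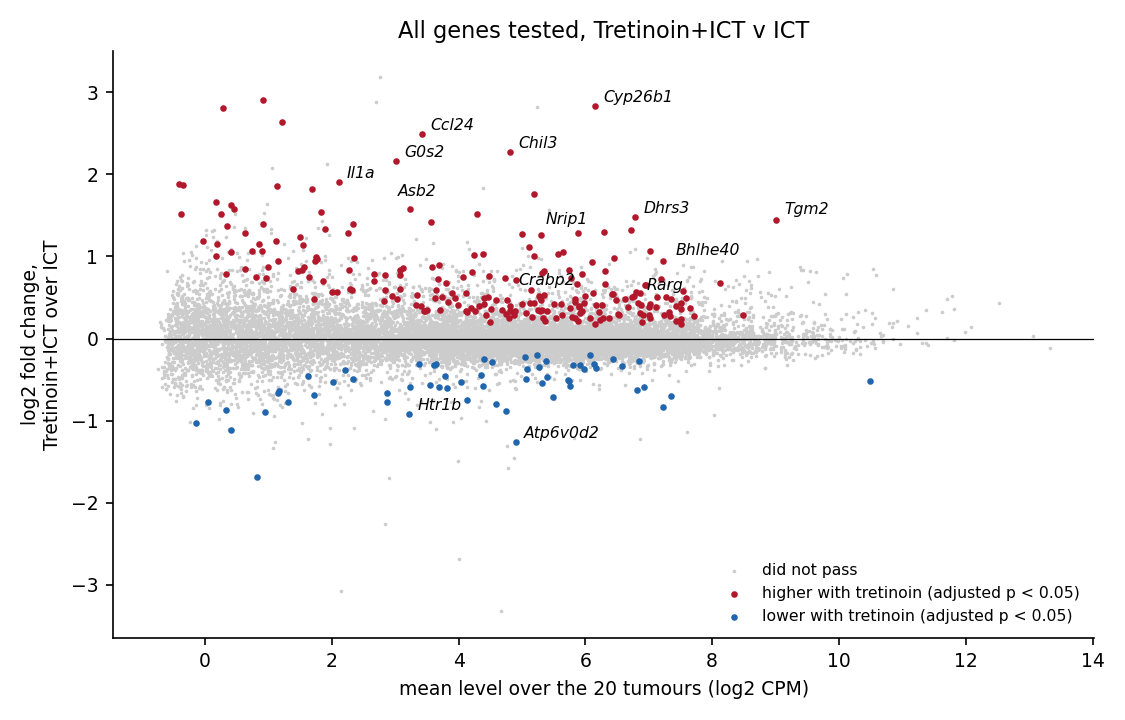
Log2 fold change (Tretinoin+ICT over ICT) of the 14202 genes tested against their mean level over the 20 tumours in log2 CPM, with genes past an adjusted p of 0.05 in red (higher) and blue (lower). The 223 red points outnumber the 60 blue ones, with Cyp26b1 at 2.83 and Atp6v0d2 at -1.26.

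The genes that handle retinoids included some of the clearest differences. Of 16 tested genes of retinoid handling, 4 rose and none fell, with a median log2 fold change of 0.19. Cyp26b1 (chr6:84571414-84593908, mouse build GRCm38), the cytochrome that breaks down retinoic acid, ranged 52.3 to 168 CPM (median 118) in the Tretinoin+ICT tumours and 6.31 to 32.04 CPM (median 15.7) in the ICT tumours. The 2 groups did not overlap, and the log2 fold change was 2.83 (SE 0.26, adjusted p = 2.07e-06). In what follows a value in parentheses with no unit is a log2 fold change of Tretinoin+ICT over ICT, with edgeR's Benjamini-Hochberg adjusted p. Dhrs3 (chr4:144892827-144928209), which turns retinaldehyde back to retinol, ranged 110.0 to 201 CPM (median 165) against 42.5 to 73.05 CPM (median 58.9), again without overlap (1.48, SE 0.11, adjusted p = 7.91e-08). These are enzymes that lower the amount of retinoic acid or of its precursor.

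The binding protein Crabp2 rose less than these enzymes. Crabp2 (chr3:87948666-87953376), which carries retinoic acid to its receptors, ranged 69.1 to 103 CPM (median 81.4) with tretinoin and 40.00 to 65.9 CPM (median 60.95) without (0.55 on the log2 scale, SE 0.09, adjusted p = 0.00164), and the groups did not overlap. Aldh1a2, which makes retinoic acid, was at 3.09 to 15.3 CPM (median 7.95) and 1.91 to 7.63 CPM (median 3.96) and did not pass (0.95, adjusted p = 0.133), and the groups overlapped. The summed level of the whole list was 467 to 699 CPM with tretinoin and 332 to 411 CPM without, so that the lowest treated tumour was above the highest ICT tumour.

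Lrat, which stores retinol as an ester, had too few reads for the low-count filter. Its raw counts were 3 to 42 per tumour in the Tretinoin+ICT group (median 11.5, 145 in all) and 0 to 4 in the ICT group (median 0, 8 in all). 9 of the 10 treated tumours were above every ICT tumour in CPM. In the fit without the filter its log2 fold change was 3.75 (SE 0.58, adjusted p = 0.000633), a value that depends on very few ICT reads. Cyp26a1, Cyp26c1, Rbp4, Ttr and Rarb were not found in the table and were not analysed here.

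Of 24 tested receptors and direct targets, 4 rose and none fell, with a median log2 fold change of 0.24. Nrip1, a cofactor that represses nuclear receptors, ranged 78.4 to 145 CPM (median 106) with tretinoin and 34.4 to 50.6 CPM (median 46.4) without (1.3, SE 0.10, adjusted p = 1.06e-07). Rarg, the gamma retinoic acid receptor, ranged 111 to 169 CPM (median 134) and 78.98 to 106 CPM (median 87.5) (0.56, adjusted p = 8.26e-05). Asb2 (chr12:103321142-103356001), a ubiquitin ligase subunit known as a retinoic acid target in leukaemia cells, ranged 7.65 to 19.97 CPM (median 14.8) and 2.31 to 7.53 CPM (median 4.36) (1.58, SE 0.22, adjusted p = 0.000246). None of these 3 genes overlapped between the groups. Tgm2 (chr2:158116402-158146436), the tissue transglutaminase, was at 477 to 1268 CPM (median 669) with tretinoin and 133 to 433 CPM (median 285) without (1.44, SE 0.21, adjusted p = 0.000284), and it did not overlap either. The other receptors did not pass, with a log2 fold change of 0.30 for Rara, 0.01 for Rxra and -0.06 for Rxrb. DESeq2 passed 5 of the 24, the same 4 and Cd38. With tumours 63 and 82 left out, 9 of the 24 rose, among them Cd38, an enzyme of NAD breakdown (2.43, adjusted p = 0.000118, against 1.56, adjusted p = 0.0624, with all 20 tumours).

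**Figure D2:**
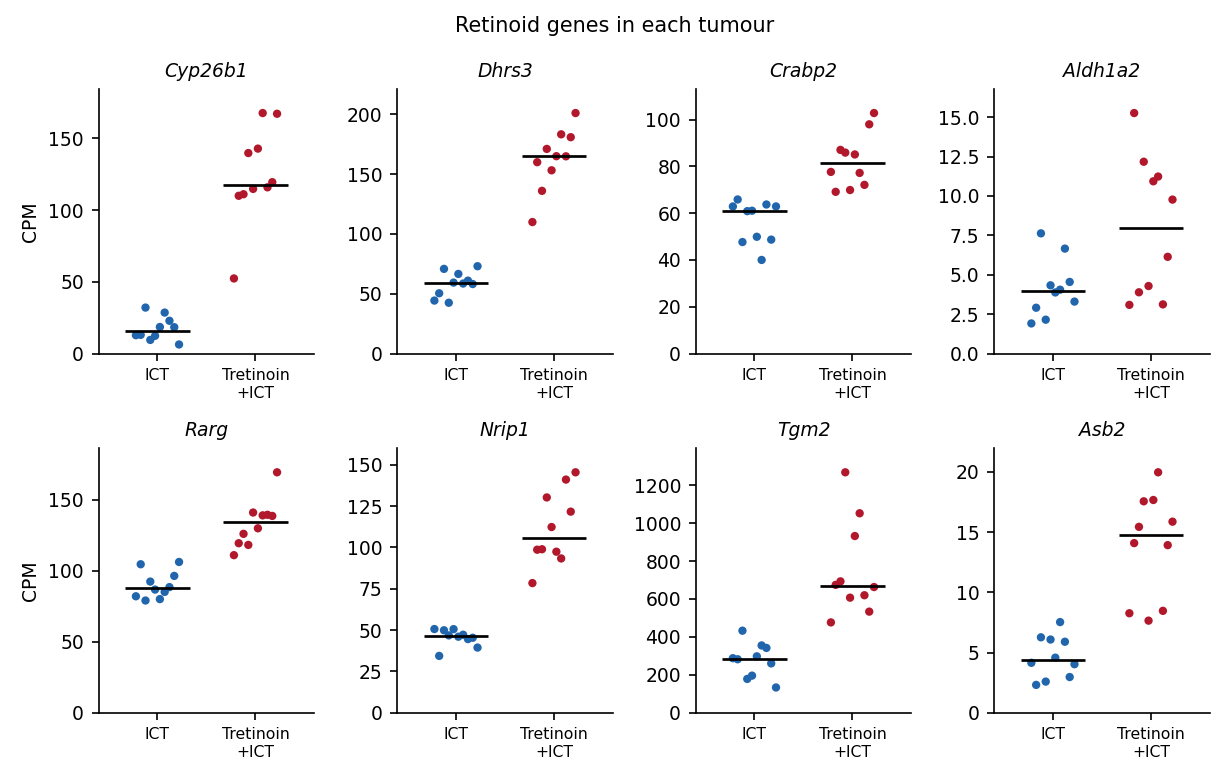
Level in CPM (linear axis from 0) of 8 retinoid genes in each ICT tumour (blue) and each Tretinoin+ICT tumour (red), with a black line at the group median. For 7 of the 8 genes every red point is above every blue point, and for Aldh1a2 the groups overlap.

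Promoter letters were read for these genes because retinoic acid receptors bind pairs of 6-base half-sites. The windows are those of RefSeq on GRCm38.p6, from 250 bases before to 50 bases after a gene's start. Direct repeats of the half-sites (AGGTCA or AGTTCA or GGGTCA or GGTTCA), on either strand, with 5 bases between them were in 0.0974% of 32851 windows, and with 2 bases between them in 0.268%. The genes that rose had 206 windows for 157 symbols, with no 5-base and 1 2-base repeat (0.485%). The 51 windows of the genes that fell held no 5-base and 1 2-base repeat (1.96%). Single half-sites were in 39.3% of the windows of genes that rose and 43.7% of all windows. The window of Cyp26b1, the gene with the largest fold change among the retinoid genes past the count filter, is shown with 1 of the windows of Nrip1, which holds 3 half-sites, and with that of Cyp26a1, the relative of Cyp26b1 that was not analysed here and whose window holds a 5-base repeat. Capitals mark the half-sites, or the repeat with its spacer in Cyp26a1, and there are none in Cyp26b1. A second Nrip1 window, chr16:76373000-76373299, holds 0 half-sites and is not shown. These are matches of letters and not measured binding.
Cyp26b1, chr6:84593761-84594060, minus strand: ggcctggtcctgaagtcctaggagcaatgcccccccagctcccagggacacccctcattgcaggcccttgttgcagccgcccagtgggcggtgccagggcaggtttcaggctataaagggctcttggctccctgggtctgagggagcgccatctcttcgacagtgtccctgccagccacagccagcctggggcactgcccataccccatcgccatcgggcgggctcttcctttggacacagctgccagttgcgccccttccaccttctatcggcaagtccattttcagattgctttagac
Cyp26a1, chr19:37697558-37697857, plus strand: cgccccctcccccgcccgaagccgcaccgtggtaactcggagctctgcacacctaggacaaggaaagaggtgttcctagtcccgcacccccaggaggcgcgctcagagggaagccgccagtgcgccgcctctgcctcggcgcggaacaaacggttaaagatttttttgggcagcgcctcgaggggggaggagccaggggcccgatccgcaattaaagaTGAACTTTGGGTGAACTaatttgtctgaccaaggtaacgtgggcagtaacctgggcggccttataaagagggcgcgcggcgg
Nrip1, chr16:76373778-76374077, minus strand: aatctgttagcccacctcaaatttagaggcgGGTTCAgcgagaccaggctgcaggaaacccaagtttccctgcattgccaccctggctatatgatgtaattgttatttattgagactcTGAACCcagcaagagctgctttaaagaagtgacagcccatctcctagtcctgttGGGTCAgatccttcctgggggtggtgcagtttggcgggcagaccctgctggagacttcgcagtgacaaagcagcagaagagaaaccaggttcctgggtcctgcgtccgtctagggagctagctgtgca

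Outside the retinoid lists, the genes with the largest rises were of many kinds. G0s2 (chr1:193272161-193273217), an inhibitor of fat breakdown, ranged 7.94 to 22.6 CPM (median 11.8) with tretinoin and 1.52 to 4.14 CPM (median 3.16) without, with no overlap (2.17, SE 0.22, adjusted p = 5.33e-06). Rab20, a small GTPase of endosomes, ranged 18.5 to 44.9 CPM (median 26.3) and 4.49 to 17.02 CPM (median 9.14), also without overlap (1.51, adjusted p = 0.000329). Prtn3, the neutrophil protease proteinase 3, was at 1.08 to 7.06 CPM (median 2.74) and 0.0631 to 1.85 CPM (median 0.777) (1.85, adjusted p = 0.0118), with 8 treated tumours above every ICT tumour. The neutrophil markers S100a8 and S100a9 did not pass (0.17 and 0.16 on the log2 scale), and none of the 5 tested neutrophil markers did.

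Calcb, the beta form of the neuropeptide CGRP, was at 1.82 to 9.13 CPM (median 4.36) and 0.263 to 2.67 CPM (median 1.15) (1.82, SE 0.32, adjusted p = 0.00223), with 8 treated tumours above every ICT tumour. Padi4, an enzyme that citrullinates histones, was at 1.38 to 11.8 CPM (median 4.67) and 0.484 to 3.01 CPM (median 1.74) (1.54, adjusted p = 0.0363). The call of Padi4 held in 9 of the 20 fits that left out 1 tumour, and ended without tumour 22, 24, 41, 42, 45, 61, 62, 64, 65, 81 or 85, where its adjusted p reached at most 0.0857. Inmt, an amine methyltransferase named after its values were seen, had a low level, at 1.03 to 6.22 CPM (median 2.88) and 0.189 to 0.924 CPM (median 0.408) without overlap (2.90, adjusted p = 4.76e-05).

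4 genes were called lower. Atp6v0d2 (chr4:19876841-19922605), a proton pump subunit of osteoclasts and some macrophages, was at 10.2 to 31.4 CPM (median 14.3) with tretinoin and 11.9 to 88.2 CPM (median 36.5) without (-1.26, SE 0.31, adjusted p = 0.0385). Its groups overlapped, with 3 treated tumours below every ICT tumour. The other 3 called genes, named after their values were seen, were low in level. They are Cd207, the langerin of Langerhans cells (-1.69, adjusted p = 0.00661), Spic, a transcription factor of iron-recycling macrophages (-1.11, adjusted p = 0.00308), and Cyp3a13 (-1.03, adjusted p = 0.0327). Each of the 3 had a median below 1 CPM in the Tretinoin+ICT group.

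The 3 genes lower in every treated tumour were also chosen after their values were seen. Htr1b, a serotonin receptor, ranged 4.59 to 7.95 CPM (median 6.06) with tretinoin and 8.10 to 14.4 CPM (median 12.2) without (-0.92, SE 0.12, adjusted p = 8.26e-05). Rap2b, a Ras-like GTPase, changed by -0.33 (adjusted p = 8.26e-05) and Nfxl1 by -0.35 (adjusted p = 0.00286).

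Interferon stimulated genes were mostly a little higher with tretinoin, and none passed with all 20 tumours. Of 82 tested genes of the interferon stimulated list, which was taken from the study's supplement without knowledge of how it was drawn up, none passed the adjusted p in either direction. Their median log2 fold change was 0.33, 79 of the 82 were positive, and 34 had an unadjusted p below 0.05, all upward (1361 of all 14202 genes did so upward). DESeq2 passed 3 of them (Wars, Pml and Batf2), all higher, beside 421 of 16185 genes upward. Without tumour 63 alone 3 of the 82 passed, beside 545 of 14266 genes upward. Leaving out tumours 63 and 82 brought 24 of the 82 past the adjusted p, all upward, with a median of 0.42, beside the 9.58% of all genes given above. Tumours 63 and 82 were singled out for high immune genes, so this fit is not independent of the list.

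Irf1, the interferon-induced transcription factor, ranged 522 to 1320.1 CPM (median 783) with tretinoin and 140.4 to 888 CPM (median 488) without (0.83, SE 0.25, adjusted p = 0.0967). All 10 treated tumours were above the median of the ICT tumours, and 4 were above every ICT tumour. It passed by DESeq2, and by edgeR without tumours 63 and 82 (1.05, adjusted p = 0.0155). Of 19 interferon receptors and regulators 1 rose (5 by DESeq2, Irf1, Irf4, Irf5, Irf8 and Socs3), namely Socs3, a feedback inhibitor of cytokine signalling, at 115 to 255 CPM (median 183) against 71.4 to 152 CPM (median 111) (0.72, adjusted p = 0.0134). Without the 2 tumours 12 of the 19 rose, including Irf8 and Irf4, transcription factors of myeloid and lymphoid cells (1.20 and 1.09). Ifng was not found in the table and was not analysed here.

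The guanylate-binding proteins and IRG GTPases, which act against intracellular pathogens, had the highest median log2 fold change of the groups, 0.80, and all 17 tested members were positive, yet none passed edgeR's adjusted p with all 20 tumours. 11 had an unadjusted p below 0.05, and DESeq2 passed 1, Irgm2. Their sequences are alike, and the handling of reads that fit several genes is not given in the sources used here, so their single values are uncertain. Gbp2 ranged 645 to 2149.6 CPM (median 1237) with tretinoin and 113 to 1505 CPM (median 813) without (0.73, SE 0.32, adjusted p = 0.242), with a wide overlap. The lowest ICT tumour was 85 and the highest was 63. Without tumours 63 and 82, 11 of the 17 rose and Gbp2 did not (0.99, adjusted p = 0.0532). Without tumour 63 alone 1 of the 17 rose, and without tumour 82 alone none did.

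Antigen presentation genes did not pass with all 20 tumours. By edgeR or DESeq2, none of 16 genes of MHC class I presentation passed (median 0.34, 8 with an unadjusted p below 0.05), and 5 rose without the 2 tumours. B2m, the shared light chain, was at 1788 to 4259 CPM (median 2986) with tretinoin and 1220.0 to 3888 CPM (median 2308) without (0.34, adjusted p = 0.324, and 0.54, adjusted p = 0.0414, without them). None of 9 class II genes passed by either tool (median 0.30, 1 with an unadjusted p below 0.05), and all 9 rose without the 2 tumours (median 0.93), a fit that is not independent of this list. With only tumour 63 or only tumour 82 left out, no class I or class II gene passed. H2-Ab1 ranged 358 to 1041 CPM (median 638) and 195 to 1311 CPM (median 389), its 2 highest tumours being 63 and 82 (0.30, adjusted p = 0.633). Without them the log2 fold change was 0.92 (adjusted p = 0.0226), and H2-Aa moved from 0.30 to 0.95 (adjusted p = 0.0211). Ciita was not found in the table and was not analysed here.

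None of 17 checkpoint ligands and receptors passed with all 20 tumours by edgeR or DESeq2 (1 had an unadjusted p below 0.05), and 9 rose without tumours 63 and 82. With only tumour 63 or only tumour 82 left out, none of the 17 passed. Cd274, which encodes PD-L1, the target of 1 of the antibodies, ranged 109 to 519 CPM (median 234) with tretinoin and 25.2 to 511 CPM (median 139) without (0.70, adjusted p = 0.35). Only 1 treated tumour was above every ICT tumour. Without the 2 tumours its log2 fold change was 1.21 (adjusted p = 0.0377).

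**Figure D3:**
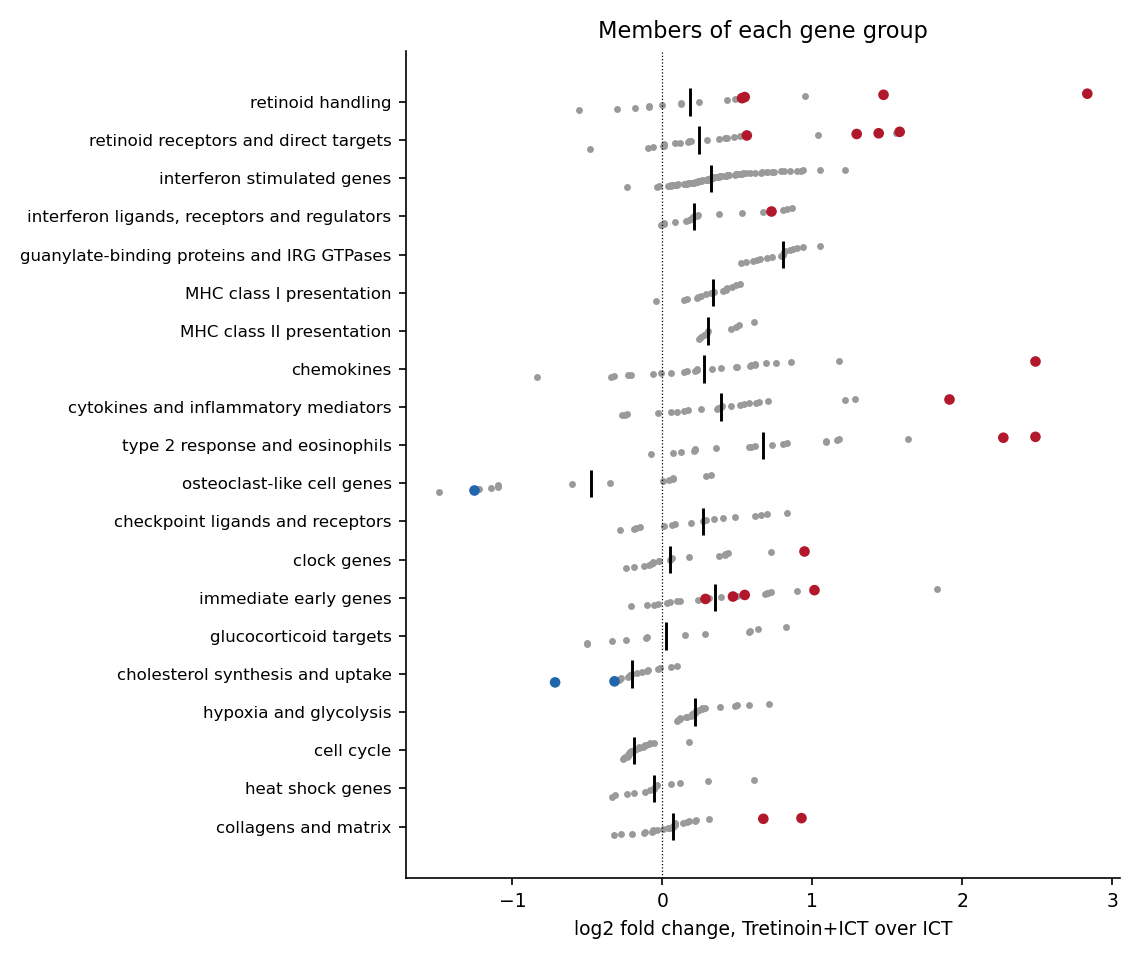
Log2 fold change (Tretinoin+ICT over ICT, all 20 tumours) of the tested members of 20 gene groups, 1 point a gene, with members past an adjusted p of 0.05 in red (higher) or blue (lower), the rest in grey, and a black bar at each group's median. Coloured points are few, and the medians run from -0.48 in osteoclast-like cell genes to 0.80 in the guanylate-binding proteins and IRG GTPases, whose points are all grey.

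Markers of T cells did not pass with all 20 tumours. Of 9 T cell markers none passed by edgeR or DESeq2 or had an unadjusted p below 0.05 (median 0.14), and all 9 rose without tumours 63 and 82, which were chosen for these very genes. With only tumour 63 or only tumour 82 left out, none of the 9 passed. Cd8a ranged 5.29 to 17.7 CPM (median 8.34) with tretinoin and 3.47 to 32.6 CPM (median 6.10) without, with a log2 fold change of -0.23 (SE 0.40, adjusted p = 0.774). Its direction turned to 0.62 without the 2 tumours, which did not pass (adjusted p = 0.0812). Tbx21, the T-bet factor of type 1 T cells and NK cells, ranged 5.05 to 16.4 CPM (median 10.5) and 1.65 to 10.9 CPM (median 4.06) (1.04, adjusted p = 0.0847), and passed by DESeq2 and without the 2 tumours (1.47, adjusted p = 0.00202). Foxp3, the factor of regulatory T cells, ranged 4.13 to 16.1 CPM (median 7.87) and 5.65 to 11.6 CPM (median 9.07) (0.00, SE 0.19, adjusted p = 0.995). Its direction changes with the processing. Ptprc, the leukocyte marker CD45, did not pass either (0.15, adjusted p = 0.729). Gzmb was not found in the table and was not analysed here.

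**Figure D4:**
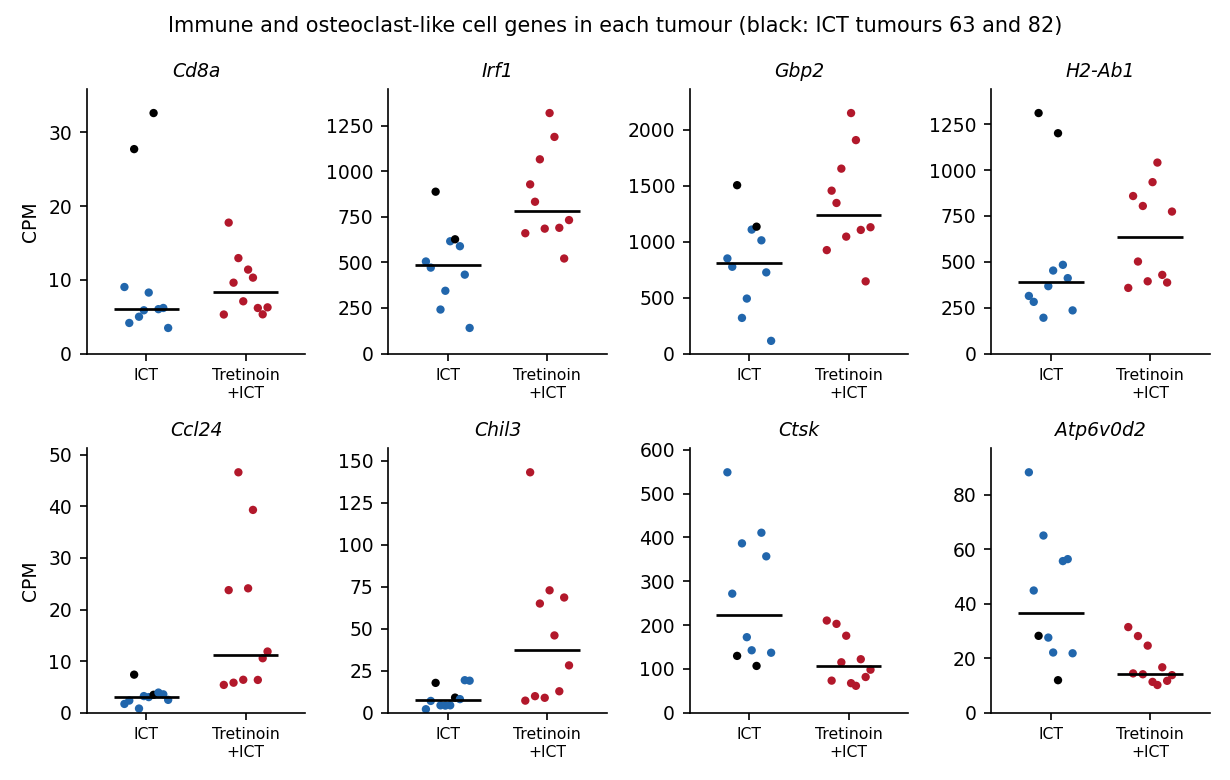
Level in CPM (linear axis from 0) of 8 immune and osteoclast-like cell genes in each tumour, ICT in blue, Tretinoin+ICT in red, ICT tumours 63 and 82 in black, with a line at the group median. Tumours 63 and 82 are the highest of all 20 for Cd8a and H2-Ab1, and the groups overlap for all 8 genes.

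Among 26 chemokines 1 rose, 3 by DESeq2, and 8 without tumours 63 and 82. Ccl24 (chr5:135569937-135573049), the eosinophil attractant eotaxin-2, was at 5.40 to 46.6 CPM (median 11.2) with tretinoin and 0.821 to 7.39 CPM (median 3.13) without (2.49, SE 0.45, adjusted p = 0.00308). All 10 treated tumours were above the ICT median and 6 were above every ICT tumour. The interferon-induced T cell attractants did not pass, with Cxcl9 at 314 to 1806 CPM (median 889.8) and 43.6 to 1283 CPM (median 444) (0.69, adjusted p = 0.37) and Cxcl10 at 0.59 on the log2 scale (adjusted p = 0.285).

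Ccl24 also counts among 20 tested genes of type 2 responses and eosinophils, of which 2 rose and none fell (median 0.67, 19 of 20 positive, and 7 passed by DESeq2, all higher). The other was Chil3 (chr3:106147554-106167564), the chitinase-like protein Ym1 of alternatively activated macrophages and monocytes, at 7.22 to 143 CPM (median 37.1) with tretinoin and 2.11 to 19.4 CPM (median 7.58) without (2.27, SE 0.55, adjusted p = 0.0326). The treated tumours spread widely. Among those of non-responding mice Chil3 was at 7.22, 9.88, 8.91 and 68.6 CPM, and among those of responding mice at 12.8 to 143 CPM, a difference that was not tested. The call of Chil3 held in 8 of the 20 fits that left out 1 tumour. It ended without tumour 22, 24, 41, 42, 44, 61, 62, 64, 65, 81, 82 or 83, where the adjusted p was at most 0.0750. Il13, the type 2 cytokine that induces these genes, was at 0.648 to 5.64 CPM (median 1.66) and 0.126 to 2.72 CPM (median 0.707) and did not pass (1.64, adjusted p = 0.111), nor did Ccl17 (1.18, adjusted p = 0.0836). With tumours 63 and 82 left out, 14 of 21 tested genes rose, Il13 (2.08, adjusted p = 0.0207) and Ccl17 (1.48, adjusted p = 0.0152) among them. These tumours had the highest summed levels of the list in the ICT group, at 3064 and 2518 CPM. That fit is therefore not independent of the list. Without tumour 63 alone 9 members rose, and without tumour 82 alone 2 did. Prg2, the eosinophil major basic protein, was under the low-count filter with 5 to 50 raw counts a tumour with tretinoin and 0 to 14 without, and passed in the fit without it (2.03, adjusted p = 0.0145).

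Of 23 cytokines and inflammatory mediators 1 rose (4 by DESeq2), Il1a, the alarm cytokine interleukin-1 alpha, at 3.82 to 10.6 CPM (median 5.75) against 0.227 to 5.67 CPM (median 1.42) (1.91, SE 0.41, adjusted p = 0.0142). 5 treated tumours were above every ICT tumour. Il1b (0.54, adjusted p = 0.309), Tnf (0.40, adjusted p = 0.49) and Il6 (0.10, adjusted p = 0.879) did not pass. Nos2, the inducible nitric oxide synthase, was spread widely, at 13.97 to 236 CPM (median 40.3) with tretinoin and 5.45 to 282 CPM (median 22.9) without, the highest of all being ICT tumour 63 (0.52, SE 0.69, adjusted p = 0.693). Without the 2 tumours 10 of the 23 rose, and Nos2 did not pass (1.76, adjusted p = 0.0577).

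Genes of osteoclast-like cells, multinucleate cells of the macrophage line that break down matrix, had the lowest median log2 fold change of the groups, -0.48 over 14 tested genes. Atp6v0d2, described above, was the only one past the adjusted p, and 8 had an unadjusted p below 0.05 downward (1210 of all 14202 genes did so downward). DESeq2 passed 4 of the 14 downward, Atp6v0d2, Ctsk, Acp5 and Rufy4. Oscar, a listed gene under the low-count filter, had 1 to 12 raw counts a tumour with tretinoin and 6 to 33 without. It passed downward in the edgeR fit without the filter (-1.74, adjusted p = 0.0342) and by DESeq2 (adjusted p = 0.00256). The call of Atp6v0d2 held in 8 of the 20 fits that left out 1 tumour, and ended without tumour 22, 24, 41, 42, 43, 44, 45, 61, 62, 64, 83 or 84, where the adjusted p was at most 0.0872. Ctsk, the collagen-cutting cathepsin K, ranged 61.5 to 210.5 CPM (median 107) with tretinoin and 107 to 549 CPM (median 222) without (-1.14, SE 0.32, adjusted p = 0.0748), with 5 treated tumours below every ICT tumour. Acp5, the tartrate-resistant phosphatase, ranged 30.7 to 148 CPM (median 51.1) and 66.9 to 318 CPM (median 136) (-1.22, adjusted p = 0.0993). In the fit lacking tumours 63 and 82, 8 of the 14 fell, Ctsk (-1.33, adjusted p = 0.0157) and Acp5 (-1.42, adjusted p = 0.0214) among them, and 1 rose, Tcirg1, another proton pump subunit (0.35, adjusted p = 0.0228). The members of the list thus split in direction.

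Immediate early genes, the fast transcription factors of stimulated cells, held 4 rises among 22 tested and no fall. DESeq2 gave 6 rises and 1 fall, and 10 rose without tumours 63 and 82. Dusp5, a phosphatase that switches off ERK, ranged 25.4 to 32.1 CPM (median 26.6) with tretinoin and 16.1 to 24.5 CPM (median 19.7) without, with no overlap (0.47, SE 0.08, adjusted p = 0.000921). Junb (0.55, adjusted p = 0.0146) and Jun (0.29, adjusted p = 0.0374), parts of the AP-1 factor, and Egr2 (1.01, adjusted p = 0.0272) also rose. Egr2 lost its call without tumour 22, 24, 41, 42, 61, 62 or 65 (adjusted p of at most 0.0610). Fos, the partner of Jun, was at 440 CPM in Tretinoin+ICT tumour 25 and at 19.0 to 56.2 CPM in the other 19 tumours, and did not pass (0.69, adjusted p = 0.48), though DESeq2 passed it, lower with tretinoin.

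Of 19 clock genes 1 rose (3 by DESeq2, and 5 without tumours 63 and 82), namely Bhlhe40, a transcription factor that dampens the clock and acts in activated lymphocytes and macrophages, at 145 to 258 CPM (median 197) against 78.6 to 171 CPM (median 90.7) (0.95, SE 0.15, adjusted p = 0.000977). Every treated tumour was above the ICT median. The core clock genes Arntl (-0.07) and Clock (-0.12) did not pass. None of 12 glucocorticoid targets passed by edgeR or DESeq2 (median 0.03), and 4 had an unadjusted p below 0.05 upward and 2 downward. In the fit lacking tumours 63 and 82, 3 of the 12 rose.

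In the matrix list 2 of 26 genes rose. Among them was Loxl3, a collagen crosslinking enzyme, which ranged 200.3 to 547 CPM (median 335) with tretinoin and 162 to 283 CPM (median 224) without (0.67, adjusted p = 0.0298). Loxl3 lost its call without tumour 22, 24, 41, 42, 61, 64, 65 or 85 (adjusted p of at most 0.0658). Col1a1, the main fibrillar collagen, did not pass (0.22, adjusted p = 0.369).

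Cholesterol synthesis and uptake held 2 falls among 17 tested genes, no rise and a median log2 fold change of -0.20. Lss, lanosterol synthase, ranged 41.3 to 57.4 CPM (median 51.1) with tretinoin and 55.9 to 74.5 CPM (median 61.2) without (-0.32, SE 0.06, adjusted p = 0.00723), with 8 treated tumours below every ICT tumour. Without tumours 63 and 82, 10 of the 17 fell, beside 7.32% of all genes. Cell cycle genes did not pass with all tumours (0 of 26 by edgeR or DESeq2, median -0.19, 1 positive, 7 with an unadjusted p below 0.05, all downward), and 15 of 26 fell without the 2 tumours. Tumours 63 and 82 had the lowest summed levels of both lists in the ICT group. They stood at 2833 and 3649 CPM for cell cycle (others 4121 to 4908 CPM) and at 1322 and 1385 CPM for cholesterol (others 1402 to 1727 CPM). Leaving them out thus raises the ICT level by construction, and these counts of falls are not independent of that choice. None of 23 genes of hypoxia and glycolysis passed (median 0.22, 4 with an unadjusted p below 0.05 and 2 past DESeq2, Hk2 and Vegfa), and 6 rose without the 2 tumours. None of 14 heat shock genes passed by edgeR or DESeq2 (median -0.06, 1 with an unadjusted p below 0.05 upward and 3 downward), and 1 rose and 3 fell without them.

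Few markers of other cell types passed with all 20 tumours. 1 of 11 endothelial markers rose, Selp, the adhesion receptor P-selectin (0.59, adjusted p = 0.00759), and 1 of 5 monocyte markers, Chil3. None of the markers of leukocytes as such, CD8 and CD4 T cells, NK cells, B cells, plasma cells, macrophages, dendritic cells, neutrophils, mast cells, platelets, red cells, fibroblasts, mesothelial cells, adipocytes, skeletal muscle or skin passed by edgeR, and of them DESeq2 passed Tbx21 alone. At an unadjusted p below 0.05 stood 8 of 11 endothelial, 5 of 7 muscle, 3 of 5 monocyte, 3 of 7 B cell, 2 of 9 dendritic cell, 1 of 6 CD8, 1 of 6 fibroblast and 1 of 2 mesothelial markers upward and 2 of 4 mast cell markers downward. Of all 14202 genes, 1361 did so upward and 1210 downward. The endothelial markers summed to 373 to 486 CPM with tretinoin and 314 to 406 CPM without, and the groups overlapped. Without tumours 63 and 82, 5 of 7 NK cell, 4 of 6 CD8, 3 of 8 CD4 and regulatory T cell, 4 of 7 B cell, 4 of 9 dendritic cell, 3 of 10 macrophage, 3 of 5 monocyte, 4 of 11 endothelial, 1 of 4 leukocyte, 1 of 2 mesothelial and 1 of 3 skin markers rose, beside 9.58% of all genes. Muscle stood out in 1 tumour. The 7 muscle markers summed to 4105 CPM in Tretinoin+ICT tumour 23 and to 397 to 1908 CPM in the other 19, and their median log2 fold change was 0.69. The part of muscle tissue in the results was not tested. Without tumour 23, 286 genes passed, 258 of them shared with the 283 of the 20-tumour fit.

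The same addition of tretinoin can be read in mice without ICT, in 9 Tretinoin and 10 PBS tumours, none of which entered the comparison above. There 1645 of 14340 genes (11.5%) rose and 1284 (8.95%) fell by the adjusted p. Of the 223 genes that rose with ICT, 221 were tested in both, 220 had the same sign without ICT, and 187 (84.6% of 221, and 11.5% of the 1630 genes that rose without ICT and were tested in both) also passed upward. Of the 60 that fell, 56 had the same sign and 36 (60.0%, and 2.81% of 1280) also passed downward. None passed in the opposite direction. The median log2 fold change of the 221 genes was 0.55 with ICT and 0.58 without, and 127 of them had the smaller change with ICT. For the 60 genes that fell the medians were -0.53 with ICT and -0.32 without, and 12 had the smaller change with ICT. Both sets were chosen by passing with ICT, which favours large changes there, so the 2 sizes are not an even comparison.

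A difference between the 2 effects of tretinoin was tested as the interaction over all 39 tumours, and 46 of 14977 genes (0.307%) passed in either direction. The log2 fold change of tretinoin was lower under ICT for 40 of them and higher for 6. Higher does not mean stronger here, since all 6 had a lower median with tretinoin than with PBS. Trps1, named after its values were seen, had medians of 117 CPM with PBS and 72.5 CPM with tretinoin. Its medians were 105.1 CPM with ICT and 104.5 CPM with both. The 46 genes include 7 of the 223 genes that rose, namely Cyp26b1, Dhrs3, Lgr6, Camk2n1, Smad3, Slc25a51 and Etfbkmt, all with the lower effect under ICT. All but the first 2 of these 7 were named after their values were seen. On the scale of all 39 tumours Cyp26b1 was at 5.48 to 11.7 CPM in PBS tumours, 240 to 384 CPM with tretinoin, 6.46 to 32.8 CPM with ICT and 53.2 to 170.0 CPM with both. The rise without ICT was 5.19 on the log2 scale against 2.83 with it, and the interaction was -2.36 (SE 0.29, adjusted p = 5.87e-06). Dhrs3 was at 36.8 to 52.1, 254 to 324, 43.01 to 74.8 and 112 to 203 CPM in the same order, with an interaction of -1.18 (SE 0.13, adjusted p = 3.37e-07). For both genes all tumours given tretinoin and ICT lay below all tumours given tretinoin alone. The labels, and 1 passage of the study's text, give the same tretinoin dose with and without ICT, whereas another passage gives a higher dose for tretinoin alone. The part of dose in these differences was not tested.

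**Figure D5:**
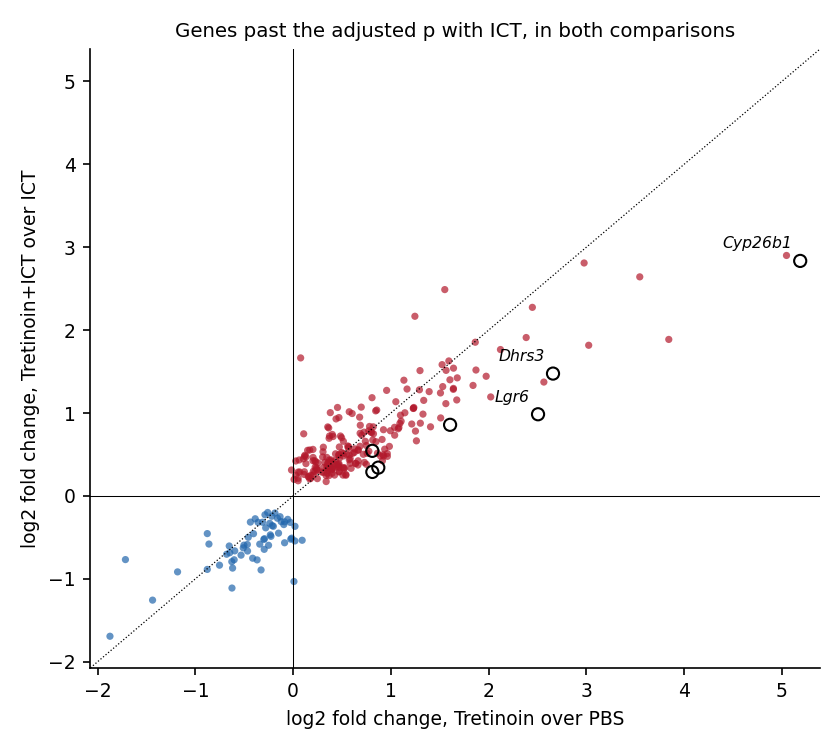
Log2 fold change of tretinoin with ICT (Tretinoin+ICT over ICT, vertical) against that without ICT (Tretinoin over PBS, horizontal) for the genes past the adjusted p with ICT and tested in both, red if higher and blue if lower with ICT. Black rings mark the 7 genes past the interaction test and the dotted line marks equal changes. All 7 rings lie below that line, with Cyp26b1 at 5.19 and 2.83.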

How the data were processed

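RNA of whole tumours was sequenced by the study on a NovaSeq in single-end runs. The authors aligned reads with HISAT2 2.0.4 to a mouse genome they name mm11 after bcl2fastq 2.20.0.422, and deposited raw read counts per gene from SummariseOverlaps, without normalization. The use of strand and the handling of reads that fit several genes are not given in the sources used here. The table held 39676 genes, of which 36719 (92.5%) matched GENCODE M21 by versioned identifier, the source of gene coordinates.

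Counts of the 20 tumours were tested with edgeR 4.0.16 in R 4.3.3 (filterByExpr, TMM normalization, robust quasi-likelihood test, Benjamini-Hochberg adjustment). CPM were scaled by TMM. A gene passed at an adjusted p below 0.05 and was called with a fold change of at least 2 as well. The interaction was fitted on all 39 tumours. The labels do not state that tumours of a group came from separate mice, and the p-values measure the spread between these tumours. Replicate numbers were given in accession order. Every tumour had Xist reads and no Ddx3y reads.

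Named in the text are, per direction, the 10 called genes that changed most at a mean log2 CPM of at least 1 (without models named by number only), up to 3 members passing per gene group and direction, and a set list of retinoid and immune genes. Some genes that this rule takes are not reported here. Members and lists were chosen with earlier results of these data known. The interferon stimulated list comes from the study's supplement. Alternatives were DESeq2 1.42.0, DESeq2 size factors, 2 other count filters, a fold change minimum of 1.5, all 39 tumours in 1 fit, and leaving out each tumour, ICT tumours 63 and 82, or each naming series.

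The scripts were tested on simulated counts. For Tretinoin+ICT v ICT with 14082 genes, edgeR recovered 38 of 66 genes changed by 0.5, 62 of 66 by 1 and 62 of 63 by 1.5 on the log2 scale, with 9 false calls. DESeq2 made 19 false calls among 14202 genes in the same simulation. For the interaction with 14848 genes, edgeR recovered fewer. These were 30 of 66 genes changed by 0.5, 45 of 67 by 1 and 55 of 66 by 1.5, with 2 false calls. Genes that did not pass the interaction test are thus not shown to respond equally with and without ICT. Promoter windows came from RefSeq on GRCm38.p6, matched by symbol.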

Additional observations from a re-analysis of the deposited data

Results flagged for a closer look

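Among the 94 groups of values checked for a tumour far from the others, 3 held one, beside a nominal 1 in 20 by chance. The check covered total counts and named genes only, so Fos in Tretinoin+ICT tumour 25 was not checked. It also misses tumours that lie far out together, as ICT tumours 63 and 82 did for Cd8a. The number found is therefore no measure of how many tumours stood apart. Tretinoin+ICT tumour 45 had a total count of 37951183, and the next highest tumour of its group had 23315096. Cyp26b1 was at 52.4 CPM in Tretinoin+ICT tumour 21, the lowest of its group, and at 110.0 CPM in the next lowest. Bhlhe40 was at 171.3 CPM in ICT tumour 63, the highest of its group, and at 116.2 CPM in the next highest.

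The effect of tretinoin differed between mice with and without ICT for Cyp26b1, with an interaction of -2.36 on the log2 scale, and for Dhrs3, with -1.18. Both differences passed the interaction test of edgeR and are described with their levels above.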

How the results depend on the processing

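None of the 283 genes past the adjusted p changed sign in any alternative. The numbers of genes past it or called, in order 52 called up, 4 called down, 223 up and 60 down, moved to 124, 13, 421 and 166 with DESeq2, 90, 11, 471 and 270 with all 39 tumours in 1 fit, and 228, 22, 1372 and 1048 without ICT tumours 63 and 82. Without a naming series they were 112 up and 35 down (series 2), 21, 1, 74 and 9 (series 4), 23, 2, 60 and 20 (series 6), and 27, 2, 82 and 19 (series 8), with 5 tumours fewer. At least 10 counts in every tumour left 30 and 1 called, and a minimum of 1.5-fold gave 105 and 25. Leaving out 1 tumour gave 40 to 109 called up, 2 to 14 called down, 164 to 545 up and 39 to 338 down. The ends were set by tumour 63 (109, 14, 545 and 338), tumour 24 (40), tumours 61 and 64 (2 called down) and tumour 42 (164 and 39), while tumour 64 also gave 39 down, tumour 21 gave 92 down and 8 called down, and tumour 44 gave 7 called down.

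Retinoid handling had 2 rises without naming series 4, and 1 fall with all 39 tumours or 2 without tumours 63 and 82 (Adh7 and Rdh10); leaving out 1 tumour gave 3 to 5 rises and 0 to 1 falls. Receptors and targets had 9 rises without tumours 63 and 82, and 4 to 5 rises and 0 to 1 falls without 1 tumour. The interferon stimulated list had 3 rises with DESeq2, 2 with all 39 tumours, 24 without tumours 63 and 82, and 0 to 3 without 1 tumour. In Tretinoin v PBS, 19 called down became 53 with DESeq2 and 44 without a count filter, and the 46 interaction genes became 85 and 29. Except for tumours 63 and 82 and the smaller fits, the cause was not tested.

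Foxp3 (0.0038) turned to -0.000343 with DESeq2, -0.17 without series 4, -0.00646 without series 8, and -0.153 to 0.0877 without 1 tumour. Cd8a (-0.23) turned to 0.62 without tumours 63 and 82, and ran from -0.39 to 0.13 without 1 tumour. Il6 (0.10) turned to -0.0631 without series 2, and ran from -0.15 to 0.19 without 1 tumour. No paired analysis was possible because the replicate numbers were given in accession order. A sex covariate was not run, since no tumour differed in sex-linked transcripts. At this depth genes with few reads, such as Lrat, have imprecise fold changes.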
